A study of Arabidopsis thaliana with 8 samples.

Results

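Transcript levels in whole dark-grown *Arabidopsis thaliana* seedlings were compared between seedlings that went from heat into oxygen-free conditions and seedlings given heat alone. The members are the 2 arrays of heat then anoxia and the 2 arrays of heat, 4 of the 8 arrays of the series, chosen by their titles. In heat then anoxia, seedlings were held at 38 °C for 90 minutes and then under anoxia (no oxygen) at 23 °C for 6 hours, and in heat they were held at 38 °C for 90 minutes with no anoxia. Anoxia at 23 °C for 6 hours without heat and untreated controls at 23 °C were used for a parallel comparison. All 4 groups were ecotype Columbia 0, 4 days old, grown in the dark in half-strength Murashige-Skoog liquid medium with 30 mM sucrose, and each had 2 biological replicates with 1 Affymetrix ATH1 array each. None of the groups analysed here was returned to air at 23 °C for 6 hours after the heat, so oxygen lack and the 6 hours that followed the heat cannot be told apart in this comparison.

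Without oxygen, plant cells lose respiratory ATP synthesis and draw on glycolysis and fermentation, in which pyruvate decarboxylase and alcohol dehydrogenase make ethanol and lactate dehydrogenase makes lactate. Group VII ethylene response factors, which oxygen makes unstable, switch on a core set of hypoxia genes. Heat activates heat shock factors, which switch on small heat shock proteins and larger chaperones that hold or refold damaged proteins, and these genes are also known to respond to anoxia. In seedlings grown in the dark, chlorophyll synthesis stops at protochlorophyllide, bound to its light-dependent reductase.

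The values are log2 intensities after GCRMA, and 14535 of 22746 probe sets, array controls aside, were tested because 2 or more of the 8 arrays reached log2 4. Array medians lay between 36.8 and 53.3 in intensity, with 58.1% to 60.6% of probe sets at or above log2 4. Replicates correlated at 0.979 in heat then anoxia and 0.979 in heat, and more than 2-fold differences between replicates occurred in 6.07% and 5.52% of probe sets. The second replicates of heat then anoxia and of anoxia carried a 25S ribosomal RNA intensity of 2816.3 and 4675.7, against 6.9 to 95.5 on the other 6 arrays; its part in the results was not tested, and values without those 2 arrays are given for the counts over all probe sets, for lists with 4 or more called genes and for some single genes. A gene name was given for 7823 of the 14535 probe sets, so many familiar genes were not analysed here. RNA came from whole seedlings, so fewer cells of a type and less RNA per cell cannot be told apart. PORB, the light-dependent protochlorophyllide reductase of dark-grown seedlings, was abundant in all groups (log2 of 11.8 or more). Of the marker lists for cell types only root hair genes had named probe sets: 2 of 6, EXPA7 and EXPA18. EXPA7 stood at 2.07 and 2.0 in heat then anoxia and 2.17 and 2.14 in heat, EXPA18 at 2.54 and 2.04 in heat then anoxia and 2.68 and 3.43 in heat, and both were above 4 in the control arrays only.

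Transcripts were both higher and lower in seedlings kept without oxygen after heat. In heat then anoxia 746 probe sets were higher than in heat and 678 were lower (2-fold or more, with a Benjamini-Hochberg adjusted p below 0.05 from limma), which is 5.13% and 4.66% of the 14535 tested, or 9.8% (1424) in either direction. The 746 higher probe sets had a median log2 difference of 1.88, and their median levels were 8.34 in heat then anoxia and 6.16 in heat, beside 7.72 in anoxia and 6.80 in control. The 678 lower probe sets had a median log2 difference of -1.60, with median levels of 5.93 in heat then anoxia and 7.68 in heat, beside 7.51 in anoxia and 7.95 in control. At the unadjusted level, 3957 probe sets (27.2%) had p below 0.05. The counts depended on single arrays: the higher count was 348 and 288 without heat replicate 1 and 2, and 466 and 212 without heat then anoxia replicate 1 and 2. The lower count was 110 and 144 without heat replicate 1 and 2, and 235 and 160 without heat then anoxia replicate 1 and 2. With both arrays of high 25S signal left out, 213 were higher and 228 lower. The median over all probe sets was -0.05, and the 4 measured reference genes, with PEX4 (a ubiquitin-conjugating enzyme) at 0.42 and TUB6 (a tubulin) at -0.08, gave no call.

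The 15 largest rises among called genes with 1 name, all with arrays that did not overlap between the groups (as in 61.5% of all probe sets), ran from 4.68 to 7.0 on the log2 scale. The first was AT5G14730, at 8.62 and 9.92 in heat then anoxia, against 2.14 and 2.41 in heat, a log2 difference of 7.0 ± 0.54 (SE; limma adjusted p = 0.000745). AT5G43450, of the 2-oxoglutarate-dependent dioxygenase family, stood at 10.66 and 11.12, against 3.94 and 4.01 in heat, a log2 difference of 6.92 ± 0.40 (SE; limma adjusted p = 0.000239). Both genes lay near the background in heat and well above it in heat then anoxia. GRX480, a glutaredoxin that binds TGA transcription factors, stood at 9.27 and 10.11 in heat then anoxia, against 3.02 and 3.38 in heat, which is 6.49 ± 0.54 (SE; limma adjusted p = 0.00082). The transcription factor gene WRKY22, known from defence and submergence responses, reached 9.50 and 9.99, against 5.04 and 3.96 in heat, a difference of 5.24 ± 0.42 (SE; limma adjusted p = 0.000781). For both regulators the lowest array of heat then anoxia lay more than 4 log2 units above the highest array of heat. GAT1_2.1, of the class I glutamine amidotransferase family, rose by 5.72 ± 0.39 (SE; limma adjusted p = 0.000408), with 9.46 and 9.45 in heat then anoxia, against 3.92 and 3.55 in heat.

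Of the other 10 genes with the largest rises, AT5G05600, of the family of dioxygenases that hydroxylate jasmonate, stood at 8.67 and 10.02, against 4.75 and 2.70 in heat, a difference of 5.62, and its 2 heat arrays were far apart. AT2G32020, a GNAT-type acetyltransferase gene, stood at 8.68 and 8.63, against 3.25 and 3.10 in heat (5.48). AT5G48110, of the terpene synthase family, stood at 7.51 and 8.74, against 2.58 and 3.04 in heat (5.31). For AT2G32020 the arrays of each group lay close together. The heat then anoxia arrays of AT5G48110 were more than 2-fold apart, as in 6.07% of probe sets, though less far than the groups. AT5G19110, of the aspartyl protease family, stood at 11.33 and 12.16, against 8.07 and 5.43 in heat, a difference of 4.99 that was not called without heat then anoxia replicate 2 (adjusted p = 0.0593). The other 6 were AT1G70420 (6.57), AT2G41730 (5.62), AT1G23710 (5.39), AT5G10210 (5.26), AT4G16680 (4.69) and AT2G18210 (4.68). The adjusted p was at most 0.00826 for the 15, and 14 were called in each of the 8 fits that left out 1 array; AT2G18210 was not called without both arrays of high 25S signal (adjusted p = 0.0621). In 13 of the 15 both heat arrays were below log2 6, where the size of a fold depends on the background model. Of the 15, 11 were also called higher in anoxia than in control, where 3.95% of probe sets were called higher. AT1G70420 was lower in heat than in control, with 9.64 and 9.68 in heat then anoxia and 3.04 and 3.15 in heat, beside 10.04 and 10.56 in anoxia and 7.50 and 7.61 in control.

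**Figure D1:**
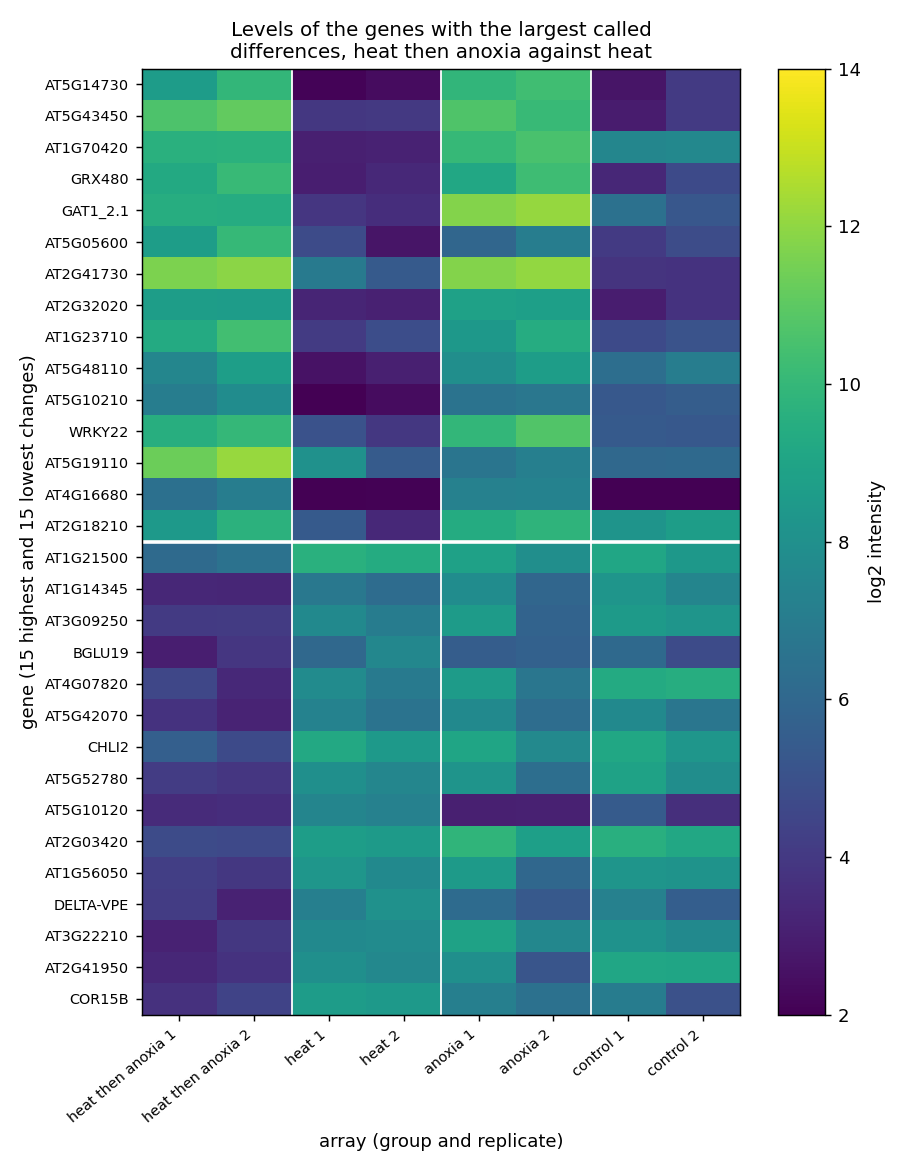
Log2 intensity (colour, 2 to 14) of the 15 genes with the largest called rises (above the white line) and the 15 with the largest called falls (below it) in heat then anoxia against heat. Columns are the 8 arrays; the risers are dark in the 2 heat arrays and bright in the 2 heat then anoxia arrays, and 11 of them are also called higher in anoxia than in control.

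Fermentation genes named on the array were few. The lactate dehydrogenase gene AT4G17260 stood at 10.64 and 11.01 in heat then anoxia, against 7.92 and 6.81 in heat, and rose by 3.46 ± 0.36 (SE; limma adjusted p = 0.00206). PDC2, a pyruvate decarboxylase of the ethanol branch, stood at 12.67 and 12.74, against 10.98 and 10.61 in heat, and rose by 1.90 ± 0.26 (SE; limma adjusted p = 0.00594). Both were called in each fit without 1 array, PDC2 with adjusted p = 0.0513 when both arrays of high 25S signal were left out. In the other groups AT4G17260 had 9.22 and 9.02 in anoxia, against 7.78 and 7.74 in control, and PDC2 had 10.43 and 10.74 in anoxia, against 8.62 and 8.99 in control. The remaining 7 of 9 measured genes of fermentation, glycolysis and sucrose breakdown were not called and lay between -0.56 and 0.61, with PPDK (pyruvate phosphate dikinase) at 0.61, a 95% interval of -0.33 to 1.55, and the acetyl-CoA synthetase gene ACS at -0.56, an interval of -1.16 to 0.03. The median of the list was -0.28, against -0.05 over all probe sets.

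Core hypoxia genes, the set raised by low oxygen across cell types and organs, had 25 of 53 loci measured, of which 9 rose and 1 fell, beside 9.8% called over all probe sets, and their median log2 difference was 1.27. The count of higher genes was 2 to 5 without any 1 of the 4 arrays of the pair and 1 without both arrays of high 25S signal, with 0 lower in each of these fits, while the median lay between 1.0 and 1.21. AT3G10040, which encodes a repressor that dampens the hypoxia response, had 7.08 and 7.42 in heat then anoxia, against 4.81 and 3.02 in heat, a rise of 3.34 ± 0.66 (SE; limma adjusted p = 0.0214). AT4G10270, of the wound-responsive family, had 10.12 and 10.18, against 8.13 and 6.22 in heat, a rise of 2.97 (adjusted p = 0.0259). In both genes heat replicate 2 lay well below heat replicate 1, and neither was called without heat replicate 2 or either heat then anoxia array (adjusted p from 0.068 to 0.121). AT4G39675 rose by 2.83, with 9.48 and 8.86, against 6.40 and 6.28 in heat, and was not called without heat then anoxia replicate 1 or either heat array (adjusted p from 0.0515 to 0.0604). AT4G17670, named after its values were seen, rose by 1.89 ± 0.26 (SE; limma adjusted p = 0.00615) and stood at 9.27 and 9.52, against 7.53 and 7.49 in heat. It was called in each fit without 1 array, as was PDC2, which also belongs to this list, and had adjusted p = 0.0556 without both arrays of high 25S signal. The other 4 risers lay between 1.27 and 1.85, each losing its call in some of those fits, and AT5G44730, named after its values were seen, fell by 1.04 on the log2 scale and was not called without either heat then anoxia array or either heat array (adjusted p from 0.113 to 0.17). The calcium-binding protein gene CML38, which acts in stress granules under low oxygen, had 10.71 and 11.60 in heat then anoxia, against 7.84 and 7.09 in heat, and its difference of 3.69 was not called (adjusted p = 0.0716). Its 2 control arrays, 4.89 and 8.89, enter the shared spread; without either control array the adjusted p was 0.00862. Of the 25 genes 13 rose in anoxia against control and 0 fell, with a median of 1.71. There 3.95% of all probe sets were called higher, 5.92% lower and 9.87% in either direction. Both counts of the list depended on single arrays. Its median was 1.91 without anoxia replicate 2, and also without both arrays of high 25S signal.

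A pair of core hypoxia genes stood apart in the interaction, the difference between heat then anoxia minus heat and anoxia minus control. AT3G10020 had 14.89 and 14.85 in heat then anoxia, against 14.80 and 14.83 in heat, and 12.12 and 12.98 in anoxia, against 8.15 and 7.85 in control, an interaction of -4.50 ± 0.44 (SE; limma adjusted p = 0.00228). AT3G03270, a universal stress protein gene, had 13.65 and 13.54, against 13.28 and 13.15 in heat, and 11.83 and 11.71 in anoxia, against 9.23 and 9.04 in control, an interaction of -2.25 (adjusted p = 0.0075). In heated seedlings both stood at high levels with and without anoxia, and in seedlings not heated both were higher in anoxia. Both were named after their values were seen; over all probe sets the interaction was called higher for 3.73% and lower for 2.45%, 6.18% (898) in either direction.

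Small heat shock proteins hold partly unfolded proteins in solution, and their genes were not called in either direction in heat then anoxia against heat. Of 11 measured 0 were called, 0 at an unadjusted p below 0.05, with a median of 0.06 (-0.03 to 0.15 with 1 array left out) and values between -0.21 and 0.79; the 95% interval lay within 2-fold for 7 of them, as it did for 38.3% of all probe sets. AT1G53540, a class I member, had 14.86 and 15.12 in heat then anoxia, against 14.77 and 14.94 in heat, a difference of 0.14 with a 95% interval of -0.51 to 0.78. In the parallel pair it had 10.98 and 11.65 in anoxia, against 2.29 and 2.17 in control, and its interaction was -8.95 ± 0.39 (SE; limma adjusted p = 4.34e-05). The organelle member AT5G51440 had 14.52 and 14.97 in heat then anoxia, against 14.46 and 14.91 in heat, a difference of 0.06. AT1G52560, another organelle member, had 15.10 and 15.20, against 15.07 and 15.07 in heat, a difference of 0.07; both were named after their values were seen. These levels are near the highest value on these 4 arrays (15.46 to 15.52), and whether this limits a further rise was not tested. Of the members well below that value, AT4G21870 had 7.88 and 8.45, against 7.82 and 6.94 in heat (0.79, limma adjusted p = 0.201). AT5G47600 had 5.15 and 4.66, against 5.19 and 5.04 in heat (-0.21). In anoxia minus control these 2 genes had 0.67 and -0.66 and were not called. In anoxia against control 7 of the 11 rose, with a median of 5.38, beside 3.95% of all probe sets. A lower interaction was called for 7, beside 2.45% of all probe sets.

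The larger chaperones and their helpers were not called either. Of 11 measured 0 were called, 0 at an unadjusted p below 0.05, with a median of 0.04 (-0.09 to 0.10 with 1 array left out) and values between -0.47 and 0.28, and the interval lay within 2-fold for 8. Fes1A, a nucleotide exchange factor for cytosolic HSP70, had 13.86 and 13.92 in heat then anoxia, against 13.82 and 13.62 in heat, with a 95% interval of -0.41 to 0.75. HSA32, which prolongs acquired heat tolerance, had 13.49 and 13.40, against 13.34 and 13.53 in heat, with an interval of -0.72 to 0.74. Hop2, an adaptor between HSP70 and HSP90, had 12.26 and 12.65, against 12.21 and 12.13 in heat. It was not called in anoxia against control either (0.82). The J-domain protein gene AT1G71000 had 13.68 and 13.56, against 14.12 and 14.05 in heat (-0.47, adjusted p = 0.251), and 9.48 and 9.66 in anoxia, against 2.41 and 2.83 in control. Of the list 7 genes rose in anoxia against control, with a median of 2.96, and 7 had a lower interaction (4 without both arrays of high 25S signal), Hop3 (-4.86) and the J-domain gene AT3G14200 (-2.76) among them. The Hop3 interaction was not called without heat replicate 2 (adjusted p = 0.0508). Over all probe sets 3.95% were called higher in anoxia than in control, and 2.45% had a lower interaction. Fes1A and HSA32 were named after their values were seen.

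**Figure D2:**
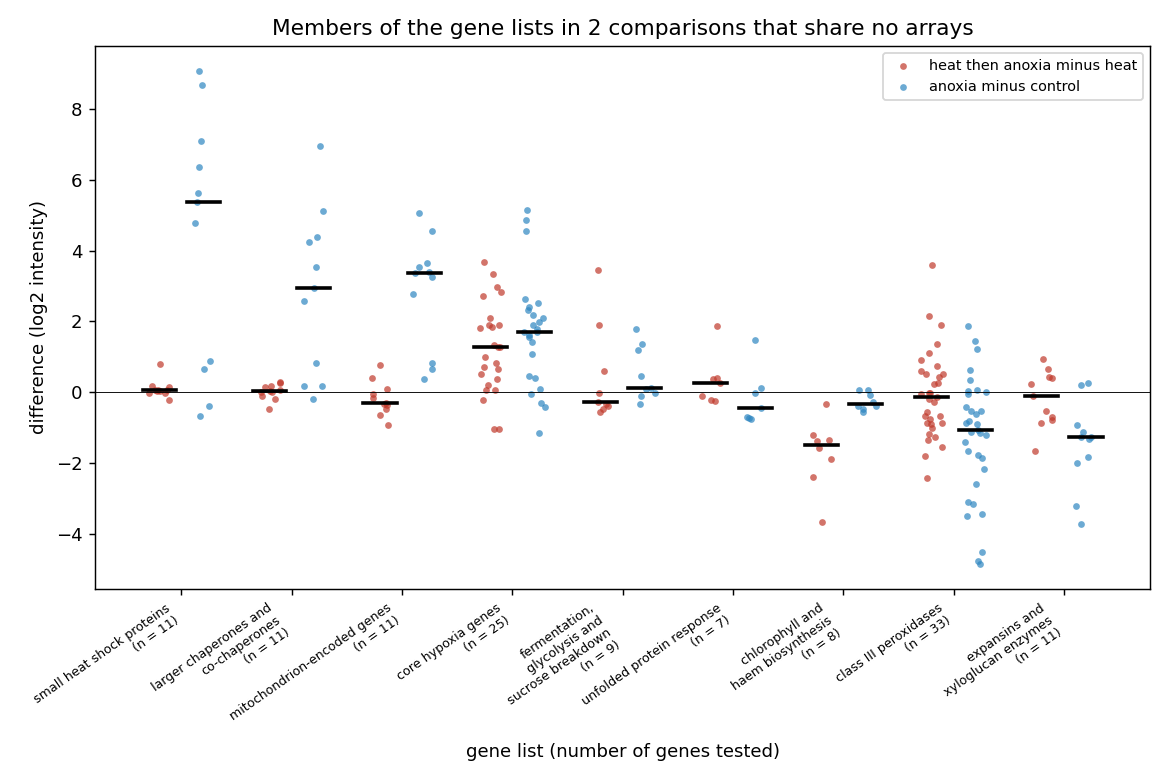
Log2 difference of every measured member of 9 gene lists (points) in heat then anoxia minus heat and in anoxia minus control, which share no arrays; black bars are list medians. Small heat shock proteins have medians of 0.06 after heat and 5.38 without it, core hypoxia genes 1.27 and 1.71, and chlorophyll and haem genes -1.48 and -0.34.

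Of 5 measured genes of alternative respiration and mitochondrial stress 2 rose, beside 5.13% of all probe sets called higher. The transporter gene AT2G04050, of the MATE efflux family, had 5.57 and 6.78 in heat then anoxia, against 3.28 and 3.02 in heat, a rise of 3.03 ± 0.38 (SE; limma adjusted p = 0.0043). AT2G21640, known as UPOX and raised by oxidative stress, had 11.50 and 11.96, against 10.47 and 10.07 in heat, a rise of 1.46 that was not called without heat then anoxia replicate 2 or heat replicate 2 (adjusted p from 0.0928 to 0.1). AT2G04050 was called in each fit without 1 array. The other 3 genes were not called, among them the alternative NADH dehydrogenase gene NDB2 (0.80, adjusted p = 0.0937). UPOX rose less than in the parallel pair, where it had 10.26 and 10.49 in anoxia, against 6.79 and 6.79 in control (interaction -2.12, adjusted p = 0.0182); the interaction was not called without heat then anoxia replicate 1, heat replicate 1 or either control array (adjusted p from 0.0539 to 0.0636). The glutathione transferase gene GSTU25 had 7.69 and 8.20, against 5.34 and 4.45 in heat, and its rise of 3.05 (adjusted p = 0.0288) was not called without either heat then anoxia array or either heat array (adjusted p from 0.0756 to 0.15). The zinc finger gene STZ was higher in both arrays, 11.23 and 11.43 in heat then anoxia, against 10.31 and 10.16 in heat, but was not called (1.09, adjusted p = 0.58). Its control arrays, 2.94 and 7.29, differed widely and enter the shared spread; without either of them the adjusted p was 0.041.

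The unfolded protein response of the endoplasmic reticulum had 1 called gene of 7 measured, beside 9.8% called over all probe sets. BZIP60, a transcription factor of this response, had 10.59 and 11.36 in heat then anoxia, against 9.02 and 9.17 in heat, a rise of 1.88 (adjusted p = 0.0133) that was not called without heat then anoxia replicate 2 or either heat array (adjusted p from 0.0639 to 0.079). Of the chaperones of this response, ATERDJ3B had 11.62 and 11.78, against 11.54 and 11.09 in heat (0.39, adjusted p = 0.35), and the calreticulin gene CRT1b had 11.92 and 11.88, against 11.71 and 11.32 in heat (0.38, adjusted p = 0.334). The 95% interval lay within 2-fold for 6 of the 7 genes, as it did for 38.3% of all probe sets. Beside the lists that follow, 5.13% of all probe sets were called higher. Among 7 U-box and ATL ubiquitin ligases 2 rose (0 without both arrays of high 25S signal), PUB22 with 9.19 and 10.07, against 7.22 and 5.66 in heat (3.19), and PUB19 with 10.81 and 10.85, against 7.56 and 8.86 in heat (2.62). PUB22 was not called without heat then anoxia replicate 2 or heat replicate 2 (adjusted p from 0.0821 to 0.106), and PUB19 not without either heat then anoxia array or heat replicate 1 (adjusted p from 0.0698 to 0.0959). Among 10 autophagy genes, ATG8E, whose product coats autophagosomes, rose by 1.52 (10.11 and 10.02, against 8.10 and 9.0 in heat) and was not called without either heat then anoxia array or heat replicate 1 (adjusted p from 0.1 to 0.116); the other 9 were not called. Of 3 sugar starvation genes 0 were called, with a median of 0.76 and 2 at an unadjusted p below 0.05, the isovaleryl-CoA dehydrogenase gene IVD at 0.91 (adjusted p = 0.0745) and AKINBETA1, a subunit of the energy sensor SnRK1, at 0.76 (adjusted p = 0.143).

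**Figure D3:**
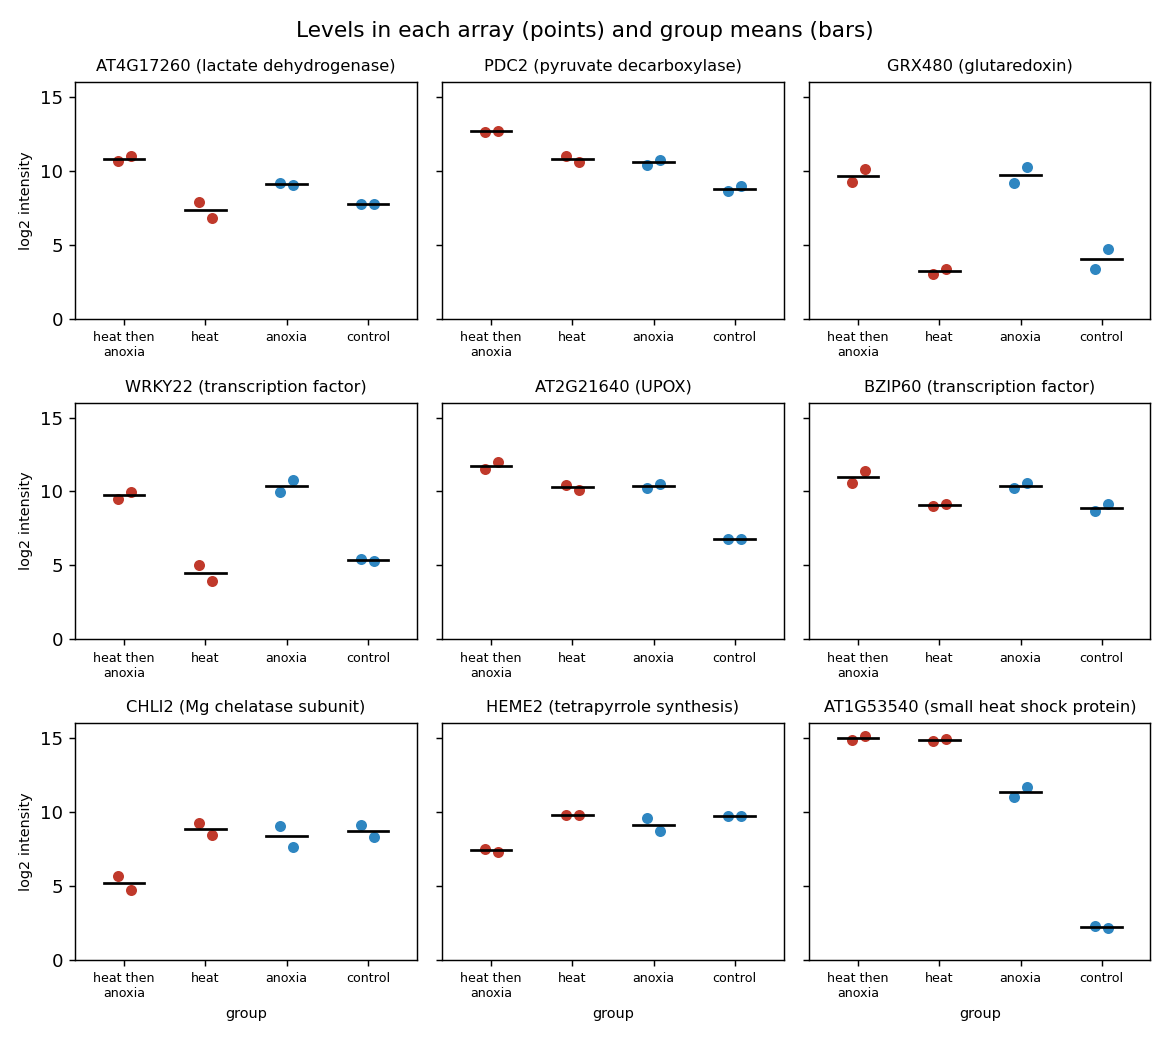
Log2 intensity of 9 genes in each array (points) with group means (bars), for heat then anoxia and heat (red) and anoxia and control (blue). AT4G17260, PDC2, GRX480 and WRKY22 are higher in heat then anoxia than in heat, CHLI2 and HEME2 are lower, and AT1G53540 is near the top of the scale in both.

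The 15 largest falls ran from -4.48 to -3.16 on the log2 scale, with adjusted p of at most 0.0315. COR15B, a cold-induced protein of the plastid stroma, had 3.71 and 4.39 in heat then anoxia, against 8.61 and 8.46 in heat, a difference of -4.48 ± 0.62 (SE; limma adjusted p = 0.00641). AT3G22210 had 3.14 and 3.93, against 7.68 and 7.78 in heat, a difference of -4.20 ± 0.46 (SE; limma adjusted p = 0.00243). AT5G10120, of the EIN3 family of ethylene transcription factors, had 3.47 and 3.57, against 7.44 and 7.26 in heat, a difference of -3.83 ± 0.50 (SE; limma adjusted p = 0.00534). In each of them both heat arrays lay more than 3 log2 units above both heat then anoxia arrays. AT2G03420 had 4.74 and 4.66, against 8.68 and 8.56 in heat (-3.92), and AT1G21500 had 6.16 and 6.54, against 9.63 and 9.40 in heat (-3.16). These 5 were called in each fit without 1 array, although AT5G10120 had adjusted p = 0.0556 without both arrays of high 25S signal. AT5G10120 was near the background in the anoxia arrays too (3.05 and 3.12), with 5.44 and 3.63 in control.

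The other 10 were called with all arrays and lost the call with 1 array fewer, all with the same direction. CHLI2, a magnesium chelatase subunit of chlorophyll synthesis, had 5.63 and 4.68 in heat then anoxia, against 9.22 and 8.45 in heat, a difference of -3.68, and was not called without heat then anoxia replicate 2 or heat replicate 1 (adjusted p from 0.0578 to 0.0601). AT5G52780, which resembles the photosystem assembly factor PAM68, had 4.12 and 3.90, against 7.96 and 7.52 in heat (-3.73), and was not called without heat then anoxia replicate 2 or heat replicate 1 (adjusted p from 0.0657 to 0.0671). The vacuolar processing protease gene DELTA-VPE had 4.15 and 3.17, against 7.19 and 8.09 in heat (-3.98), and was not called without heat then anoxia replicate 2 or heat replicate 2 (adjusted p from 0.0633 to 0.0672). The beta-glucosidase gene BGLU19 had 3.0 and 3.92, against 6.03 and 7.55 in heat (-3.33), and was not called without heat then anoxia replicate 1 or heat replicate 2 (adjusted p from 0.0734 to 0.0797). AT5G42070 (-3.46) was not called without heat then anoxia replicate 2 or heat replicate 1 (adjusted p from 0.0618 to 0.0668), and AT4G07820, related to PR-1 (-3.37), not without heat then anoxia replicate 2 or either heat array (adjusted p from 0.0566 to 0.108). AT2G41950 (-4.22), AT1G56050 (-3.93), AT1G14345 (-3.22) and AT3G09250 (-3.32) were not called without any 1 of the 4 arrays of the pair (adjusted p from 0.054 to 0.147), and AT3G09250 not without either control array (adjusted p = 0.055). In anoxia without heat 0 of the 15 were called against control, where 9.87% of all probe sets were called in either direction and 5.92% lower. For 15 genes a count of 0 lies near these shares. In 13 of them anoxia replicate 2 read lower than anoxia replicate 1. The share of all probe sets that did so was not taken, so this count cannot be judged. Any link to the higher 25S signal of anoxia replicate 2 was not tested. Both arrays of heat then anoxia lay below log2 4, near the background, for 6 of the 15.

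CHLI2 belongs to the pathway that makes chlorophyll and haem from glutamate, and a list of that pathway, added after the data were seen, had 8 of 29 genes measured, of which 6 were called lower and 0 higher, beside 4.66% of all probe sets called lower, with a median of -1.48. The lower count was 1 without heat replicate 1 or heat then anoxia replicate 2, 3 without heat replicate 2 or heat then anoxia replicate 1, 4 without either control array and 2 without both arrays of high 25S signal, while the median lay between -1.68 and -1.36. HEME2, a uroporphyrinogen decarboxylase of the shared early steps, had 7.48 and 7.29 in heat then anoxia, against 9.77 and 9.76 in heat. HEME1, its paralogue, had 7.29 and 7.21, against 9.38 and 8.90 in heat. HEME2 fell by 2.38 on the log2 scale (adjusted p = 0.00525) and was called in each fit without 1 array, and HEME1, at -1.89 (adjusted p = 0.0129), lost its call without either heat then anoxia array or heat replicate 1 (adjusted p from 0.0525 to 0.0793). HEMB1, 5-aminolevulinate dehydratase, had 9.48 and 9.16, against 11.10 and 10.69 in heat (-1.57), and was not called without any 1 of the heat, heat then anoxia or control arrays (adjusted p from 0.0621 to 0.195). GSA1, which makes 5-aminolevulinate, had 9.13 and 9.49, against 10.89 and 10.51 in heat (-1.39), and was not called without those arrays either (adjusted p from 0.0672 to 0.196). PORB, the reductase that needs light to act on protochlorophyllide, had 12.17 and 11.85, against 13.36 and 13.35 in heat (-1.35), and was not called without heat then anoxia replicate 2 or either heat array (adjusted p from 0.0739 to 0.0948). CHLM, a methyltransferase after the chelatase, was at -1.20 and not called (adjusted p = 0.0663), and AT1G74470, geranylgeranyl reductase, was at -0.34 with an interval of -0.83 to 0.15. All 8 were below their heat arrays in both heat then anoxia arrays. Over all probe sets the arrays of the 2 groups did not overlap, in either direction, in 61.5%. In anoxia against control 0 of 8 were called, with a median of -0.34 (0.12 without anoxia replicate 2), and the interaction was called lower for 1, HEME1 (-1.94, adjusted p = 0.0485), not called without either heat then anoxia array, either heat array, anoxia replicate 1 or either control array (adjusted p from 0.0819 to 0.143); without anoxia replicate 2 it was called lower for 4. GSA1, CHLM and AT1G74470 were named after their values were seen.

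Transcripts of the plastid genome were called in 1 case, a smaller share than the 9.8% of all probe sets called (4.66% lower). Of 69 measured genes this was psbA, the D1 protein of photosystem II, with 10.25 and 11.48 in heat then anoxia, against 12.63 and 12.82 in heat (-1.86, adjusted p = 0.0227), and not without heat then anoxia replicate 1 or either heat array (adjusted p from 0.0585 to 0.114). The median of the list, which was added after the data were seen, was -0.31, and 7 had an unadjusted p below 0.05, beside 27.2% of all probe sets. The median changed sign with the array left out: it was 0.19 without heat then anoxia replicate 1, with 1 gene called higher (psbN of photosystem II, 2.73, adjusted p = 0.0289, named after its values were seen) and 0 lower, and -0.97 without heat then anoxia replicate 2, with 6 called lower. It was -0.68 without heat replicate 1 and -0.06 without heat replicate 2. Heat then anoxia replicate 1 often read lower than replicate 2, as for the ribosomal protein gene rps18 (8.60 and 11.74, against 11.63 and 12.62 in heat) and the photosystem I gene psaA (8.41 and 10.15, against 10.88 and 11.48 in heat). Without heat then anoxia replicate 2, psbC, psbD, atpH, atpA and psbZ, named after their values were seen, were also called lower (-2.85 to -2.06; adjusted p from 0.0211 to 0.0441).

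Transcripts of the mitochondrial genome, a list also added after the data were seen, were not called in heat then anoxia against heat. Of 11 measured 0 were called and 1 had an unadjusted p below 0.05, beside 9.8% and 27.2% of all probe sets. The median was -0.31, with values between -0.92 and 0.76. The median was -0.52 without heat replicate 1, 0.0 without heat replicate 2 and -0.16 without heat then anoxia replicate 1, with 0 called in each fit. The complex I gene nad6 had 11.16 and 11.71 in heat then anoxia, against 11.48 and 12.31 in heat, and 8.07 and 7.69 in anoxia, against 3.82 and 2.83 in control, an interaction of -5.02 (adjusted p = 0.00471). The maturase gene matR had 7.98 and 8.21, against 9.12 and 8.91 in heat, a difference of -0.92 (adjusted p = 0.0652). The cytochrome oxidase gene cox1, named after its values were seen, had 12.06 and 11.98, against 12.08 and 12.30 in heat, with a 95% interval of -0.71 to 0.38. In anoxia against control 8 of the 11 rose, with a median of 3.37, beside 3.95% of all probe sets. A lower interaction was called for 7 of the 11, beside 2.45% of all probe sets. In heated seedlings nad6, matR and cox1 were higher than in control both with and without anoxia.

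Of protective proteins of cold and drought (a list of 15 added after the data were seen, 5 measured), 1 rose, 1 fell and 3 were not called, beside 9.8% called over all probe sets. LTI30, a dehydrin that binds membranes, had 13.60 and 13.28 in heat then anoxia, against 9.23 and 8.68 in heat, a rise of 4.48 ± 0.34 (SE; limma adjusted p = 0.000686) that was called in each fit without 1 array. It also had 8.83 and 9.57 in anoxia, against 7.53 and 7.09 in control, a smaller rise (interaction 2.59, adjusted p = 0.022); the interaction was not called without either heat then anoxia array, heat replicate 2, anoxia replicate 1 or control replicate 1 (adjusted p from 0.0575 to 0.081). COR15B fell, as given above. Its near copy COR15A, whose transcripts the probe sets may share, had 6.74 and 6.39, against 9.01 and 8.42 in heat, and was not called (-2.15, adjusted p = 0.0588); without either anoxia array the adjusted p was 0.0222. The dehydrin gene COR47 had 14.86 and 14.66, against 14.29 and 13.86 in heat (0.68, adjusted p = 0.252). The late embryogenesis abundant gene LEA had 6.97 and 5.14, against 6.38 and 6.76 in heat (-0.51, adjusted p = 0.745), with arrays that overlapped between the groups. Neither was called.

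Genes of the cell wall and of growth were called in both directions. Over all probe sets 9.8% were called in either direction, 5.13% higher and 4.66% lower. In anoxia against control 5.92% of all probe sets were called lower. Of 11 listed expansins and xyloglucan enzymes 1 fell, the beta-expansin EXPB3, with 7.0 and 6.68 in heat then anoxia, against 8.55 and 8.45 in heat (-1.66, adjusted p = 0.0073), beside 4.66% of all probe sets called lower. It was not called without heat then anoxia replicate 2 (adjusted p = 0.0587). The list's median was -0.12, against -1.26 in anoxia minus control (-1.17 and -1.33 without control replicate 1 and 2, -1.16 without anoxia replicate 1). There 6 fell, a count that depended on single arrays. EXPA7 and EXPA18, among the 6, passed the filter on dim probe sets only through their control arrays. Their falls therefore follow in part from the filter and are given as a description. Among all 20 measured expansin and XTH genes by symbol 2 rose and 2 fell, and 1 rose and 0 fell without heat then anoxia replicate 2 or without both arrays of high 25S signal. The expansin-like gene EXLA3 had 6.85 and 6.62, against 4.73 and 3.71 in heat, a rise of 2.51 ± 0.33 (SE; limma adjusted p = 0.00549) called in each fit without 1 array. EXLA1 rose by 1.93 (11.02 and 10.84, against 9.74 and 8.26 in heat) and was not called without either heat then anoxia array, heat replicate 2 or either control array (adjusted p from 0.0559 to 0.132). EXPA9 had 5.88 and 6.51, against 7.54 and 8.33 in heat (-1.74), and was not called without either heat then anoxia array, either heat array or either control array (adjusted p from 0.0664 to 0.2). XTH16, a xyloglucan endotransglucosylase, had 9.14 and 9.16, against 8.50 and 7.92 in heat (0.94, adjusted p = 0.0582), beside 7.81 and 7.80 in anoxia, against 8.84 and 8.59 in control, an interaction of 1.85 (adjusted p = 0.0284) that was not called without either heat then anoxia array, heat replicate 2, anoxia replicate 1 or either control array (adjusted p from 0.0663 to 0.0944). The auxin response repressor gene IAA20 had 6.07 and 5.84, against 7.82 and 7.75 in heat, and fell by 1.83 on the log2 scale (adjusted p = 0.00323), called in each fit without 1 array.

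Class III peroxidases, secreted enzymes that cross-link or loosen walls, had 33 measured genes, of which 4 rose and 2 fell, beside 9.8% called over all probe sets, with a median of -0.13. The counts were 0 and 0 without heat replicate 2 or heat then anoxia replicate 2, 1 and 0 without heat then anoxia replicate 1, 3 and 0 without heat replicate 1, and 0 higher and 1 lower without both arrays of high 25S signal. AT5G39580 had 6.95 and 7.68 in heat then anoxia, against 4.56 and 2.89 in heat, a rise of 3.59 (adjusted p = 0.0116), and was not called without heat then anoxia replicate 2 or heat replicate 2 (adjusted p from 0.0518 to 0.0775). AT4G36430 rose by 1.89 (6.64 and 6.57, against 5.27 and 4.16 in heat), and AT3G01190 had 3.23 and 2.87, against 5.50 and 5.45 in heat (-2.43). AT4G36430 was not called without either heat then anoxia array or heat replicate 2 (adjusted p from 0.123 to 0.175), and AT3G01190 not without either heat then anoxia array or either heat array (adjusted p from 0.0519 to 0.0997). In anoxia against control 11 of the 33 fell and 1 rose, beside 5.92% and 3.95% of all probe sets. A higher interaction was called for 7 of the 33, beside 3.73% of all probe sets. The interaction count was 3 to 6 with 1 array left out and 1 without both arrays of high 25S signal, where 7 fell in anoxia against control. AT1G30870, named after its values were seen, is among the 7, with 2.61 and 2.56, against 2.66 and 2.91 in heat, and 2.54 and 2.10 in anoxia, against 7.89 and 6.46 in control: it was near the background in every group but control.

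Enzymes that attach sugars to small molecules had 32 measured UDP-glycosyltransferase genes, of which 5 rose and 1 fell, beside 9.8% called over all probe sets, with a median of 0.43. Without heat then anoxia replicate 2 the median was 0.07, with 0 higher and 1 lower, as without both arrays of high 25S signal. The higher count was also 0 without either heat array, 1 without heat then anoxia replicate 1 and 3 without either control array. UGT84A3, which acts on hydroxycinnamic acids, had 7.33 and 7.92 in heat then anoxia, against 4.19 and 5.28 in heat (2.89, adjusted p = 0.0406). UGT73B5 had 6.38 and 7.02, against 4.12 and 4.25 in heat (2.51, adjusted p = 0.0312), and UGT76B1 had 9.17 and 9.71, against 8.05 and 7.61 in heat (1.61, adjusted p = 0.0194). UGT76C2, which inactivates cytokinins, had 5.40 and 6.28, against 7.35 and 6.97 in heat (-1.33, adjusted p = 0.0431). None of these 4 calls held in all fits without 1 array: the lost calls had adjusted p from 0.0664 to 0.195 for UGT84A3, from 0.0706 to 0.17 for UGT73B5, from 0.0589 to 0.12 for UGT76B1 and from 0.05 to 0.199 for UGT76C2. Without heat then anoxia replicate 1 the UGT76C2 difference was -0.89. Among 13 cytochromes P450 0 were called by limma (5 at an unadjusted p below 0.05), and among 10 glutathione transferases 1, GSTU25. Of 4 WRKY factors 1 rose, WRKY22; WRKY6 was at 1.12 (adjusted p = 0.111), WRKY20 at 0.25 and WRKY47 at -0.23. The iron-deficiency factor gene BHLH101 was at 2.49 and 2.43 in heat then anoxia and 2.41 and 2.49 in heat. It was at 5.11 and 5.87 in anoxia and 2.35 and 2.32 in control, a difference of 3.16 and an interaction of -3.14. BHLH101 passed the filter on dim probe sets only through its anoxia arrays and was near the background on all others. The size of these differences depends on the background model, and the values are given as a description.

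The comparison of anoxia with control, which shares no arrays with heat then anoxia against heat, shows how far anoxia moved the same probe sets in seedlings that had not been heated. There 574 probe sets were higher and 860 lower in anoxia. The higher count was 358 without anoxia replicate 2, and the lower count was 502 and 454 without control replicate 1 and 2. Of the 746 probe sets that were higher in heat then anoxia than in heat, 183 were also higher in anoxia than in control, 24.5% of the 746 and 31.9% of the 574, where 3.95% of all probe sets were higher in anoxia and 5.13% higher in heat then anoxia. Of the 678 lower ones, 75 were also lower in anoxia, 11.1% of the 678 and 8.72% of the 860, where 5.92% of all probe sets were lower in anoxia and 4.66% lower in heat then anoxia. Opposite calls were 25 higher after heat and lower without it, 3.35% of the 746, and 9 the other way, 1.33% of the 678. Across the 14535 probe sets the log2 differences correlated at r = 0.306, a description across probe sets of the same arrays, which are not independent replicates. The 746 had a median anoxia minus control of 0.46, and 68.4% of them were higher in anoxia; the 678 had a median of -0.25, and 33.0% were higher in anoxia. The 574 probe sets that anoxia raised over control had a median heat then anoxia minus heat of 0.61, with median levels of 9.71 in heat then anoxia, 8.34 in heat, 8.56 in anoxia and 5.75 in control. The 860 that anoxia lowered had a median heat then anoxia minus heat of -0.13, with median levels of 5.28 in heat then anoxia, 5.60 in heat, 5.39 in anoxia and 7.20 in control. In both sets the median level in heat lay near that in anoxia.

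**Figure D4:**
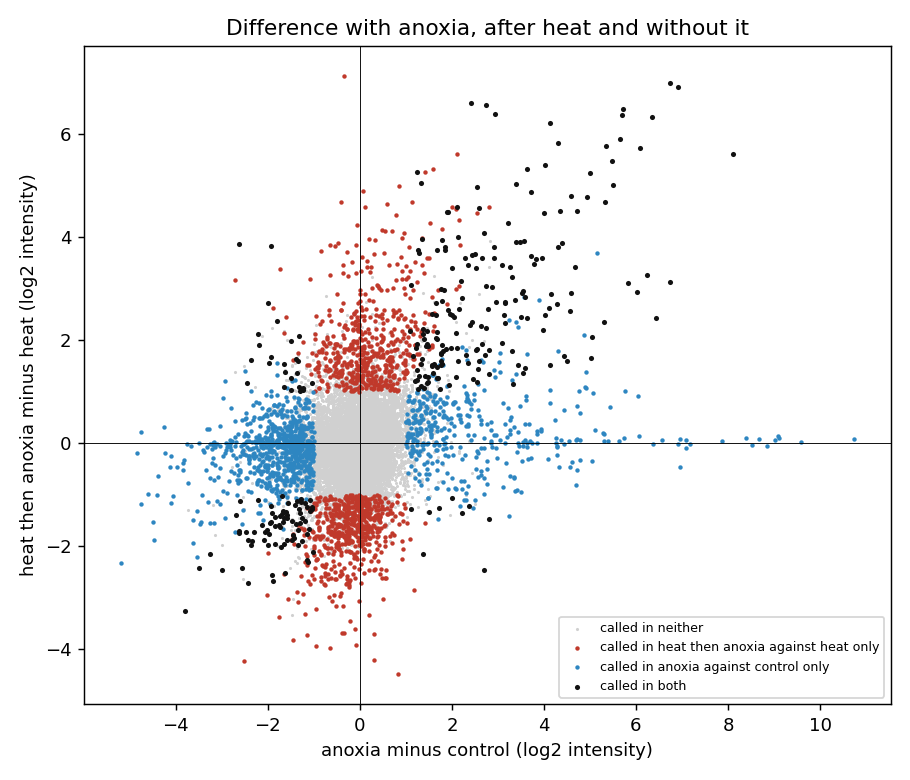
Log2 difference of heat then anoxia minus heat (vertical) against anoxia minus control (horizontal) for 14535 probe sets; colours mark probe sets called in neither, in 1 or in both comparisons. Points that lie along the horizontal axis differ between anoxia and control but little between heat then anoxia and heat, and 183 black points are higher in both.

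The interaction was higher for 542 probe sets and lower for 356. The counts were 185 to 598 higher and 153 to 445 lower with 1 array left out, the lowest higher count without heat then anoxia replicate 2 and the lowest lower count without heat replicate 2. Both counts moved by more than 1.5-fold without any array other than anoxia replicate 2. The 6 highest among called genes with 1 name were all called higher in heat then anoxia than in heat, and 3 of them were called lower in anoxia than in control. AT3G55840, related to a beet nematode resistance gene, had 7.08 and 7.21 in heat then anoxia, against 2.70 and 2.43 in heat, and 2.72 and 2.54 in anoxia, against 2.49 and 2.56 in control, an interaction of 4.48. It passed the filter on dim probe sets only through its 2 heat then anoxia arrays and was near the background on the other 6, so the size of this difference depends on the background model and its values are given as a description. AT3G04010, a glycosyl hydrolase of family 17, had 9.84 and 9.95, against 6.08 and 6.06 in heat, and 6.02 and 7.04 in anoxia, against 8.40 and 8.52 in control (5.75, adjusted p = 0.00108). AT1G21050 had 8.15 and 8.16, against 3.68 and 4.15 in heat, and 9.11 and 8.17 in anoxia, against 9.04 and 8.35 in control (4.30, adjusted p = 0.00546). In heat then anoxia AT1G21050 was near its control level, and in heat it was near the background. The other 3 were AT3G06070 (6.48), AT1G69760 (5.89) and AT1G67340 (4.34), of which AT1G69760 had heat arrays as far apart as 6.78 and 3.94. Its interaction was not called without heat then anoxia replicate 2, either anoxia array or either control array (adjusted p from 0.0532 to 0.0859). In heat then anoxia against heat AT1G69760 was not called without either heat then anoxia array, heat replicate 2, either anoxia array or either control array (adjusted p from 0.0603 to 0.216), AT1G67340 not without either heat then anoxia array or heat replicate 2 (adjusted p from 0.0607 to 0.138) and AT3G06070 not without heat then anoxia replicate 2 or heat replicate 2 (adjusted p from 0.0575 to 0.0653).

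The 6 lowest interactions were COR15B (-5.30), AT4G27657 (-5.15), AT3G22210 (-4.50), AT5G64870 (-4.0), AT2G03420 (-3.83) and AT1G76600 (-3.62). AT4G27657 had 8.85 and 8.60 in heat then anoxia, against 10.54 and 11.82 in heat, and 5.93 and 5.87 in anoxia, against 3.10 and 3.31 in control, so it was lower with anoxia after heat and higher with anoxia alone. AT5G64870, a flotillin-like membrane protein gene, had 5.06 and 5.29, against 2.98 and 2.51 in heat, and 8.51 and 8.87 in anoxia, against 2.32 and 2.20 in control. It rose in both comparisons, by 2.43 after heat and by 6.43 without it. AT1G76600 had 10.02 and 10.39, against 7.46 and 6.69 in heat, and 11.20 and 11.03 in anoxia, against 3.64 and 5.08 in control, a rise in both as well. In heat then anoxia against heat AT4G27657 was not called without heat then anoxia replicate 2 (adjusted p = 0.0708) and AT1G76600 not without heat then anoxia replicate 2 or heat replicate 2 (adjusted p from 0.0566 to 0.0612). The interaction of COR15B was not called without either heat array or anoxia replicate 1 (adjusted p from 0.0526 to 0.0581), and that of AT1G76600 not without either heat then anoxia array, heat replicate 1 or anoxia replicate 1 (adjusted p from 0.0589 to 0.0738).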

How the data were processed

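The deposited values are intensities on a linear scale, made with GCRMA per the submitters' processing notes; its version is not given in the sources used here. GCRMA models background from probe sequence, and dim values lie near log2 2, where fold changes are least certain. Deposited intensities were put on the log2 scale and not normalized again. The files hold 22810 probe sets; 64 array controls were dropped, and the rest were tested where 2 or more of 8 arrays reached log2 4. A linear model over all 4 groups was run in limma 3.58.1 (R 4.3.3), with lmFit and eBayes, 4 residual degrees of freedom and a prior of 3.81. A call needed a Benjamini-Hochberg adjusted p below 0.05 over all 14535 probe sets and at least a 2-fold change. Figures were drawn with matplotlib 3.10.9.

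The platform annotation and a RefSeq table gave 13513 probe sets a single gene, 503 more than 1 and 8730 no name. The text names genes by rule: the 15 highest and 15 lowest called differences of heat then anoxia against heat, the 6 highest and 6 lowest called interactions, and the 4 members of each list with the largest absolute difference; other names are marked as chosen later. Where more than 1 probe set matched a gene, the brightest stood for it. The lists were chosen with earlier results of these data known, so their counts are descriptions. Lists of heat shock transcription factors, of alanine, GABA and nitrogen metabolism, and of endodermis, seed storage and vascular markers had 0 measured genes; the other short lists had EIN3 at 0.54, PRL at -0.96, NAC014 at 0.06 and IAA18 at -0.38, none called. On simulated data with 50 probe sets changed at each size, the fit of heat then anoxia against heat found 4%, 62%, 72% and 94% of log2 changes of 1, 2, 3 and 4. It made 7 false calls, and 0 calls where nothing had been changed. In the data far more probe sets differed (27.2% at an unadjusted p below 0.05), so the adjusted cut was stricter in the simulation. A call also needed an estimate of at least 2-fold, which many true log2 changes of 1 miss. The shares found are therefore not the power of this fit on the data. The number of arrays limits the precision.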

Additional observations from a re-analysis of the deposited data

Results flagged for a closer look

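These results were set apart because the difference between heat then anoxia and heat itself differed from that between anoxia and control, by the interaction term of the limma fit (adjusted p below 0.05 and at least 2-fold). In all, 542 probe sets had a higher and 356 a lower interaction, and of the 145 genes chosen for naming 42 did, 27 of them in each fit with 1 array left out. Some of the 145 genes were named because their interaction was called. The 42 therefore cannot be set against the 6.18% of all probe sets with a called interaction. Values are interactions on the log2 scale, and a negative one means that the difference was lower after heat than without it.

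Among heat shock and chaperone genes were AT1G53540 at -8.95, AT1G52560 at -8.60, AT1G71000 at -7.42, AT5G51440 at -7.03, Hop3 at -4.86, HSA32 at -3.54, Fes1A at -2.79 and AT3G14200 at -2.76. Among mitochondrion-encoded genes were nad5 at -5.41, nad6 at -5.02, matR at -4.29, nad9 at -3.89 and cox1 at -3.57. Core hypoxia and mitochondrial stress genes had AT3G10020 at -4.50, AT3G03270 at -2.25 and AT2G21640 at -2.12. Among falls after heat, COR15B had -5.30, AT3G22210 -4.50, AT2G03420 -3.83, AT5G42070 -3.25, psbA -2.95, AT1G21500 -2.79, HEME1 -1.94 and IAA20 -1.35. The remaining negative ones were AT4G27657 at -5.15, AT5G64870 at -4.0, AT1G76600 at -3.62, BHLH101 at -3.14 and CML37 at -1.57. BHLH101 passed the filter on dim probe sets only through its anoxia arrays, so its value is a description.

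Positive interactions were found for AT3G06070 (6.48), AT1G69760 (5.89), AT3G04010 (5.75), AT1G30870 (4.66), AT3G55840 (4.48), AT1G67340 (4.34) and AT1G21050 (4.30). AT1G30870 passed the filter on dim probe sets only through its control arrays, and AT3G55840 only through its heat then anoxia arrays. The values of these genes are descriptions. Among the strongest rises after heat they were AT5G10210 (4.02), AT1G70420 (3.82) and AT5G48110 (3.73). The others were EXLA1 (2.70), LTI30 (2.59) and XTH16 (1.85). The interaction of IAA20 was not called without either heat then anoxia array, either heat array, either anoxia array or either control array (adjusted p from 0.0567 to 0.147), and those of AT5G42070, HEME1, CML37 and EXLA1 were called in 1 of the 8 fits with 1 array left out.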

How the results depend on the processing

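Over 17 alternative settings the 143 gene results were called, or not called, as in the main fit in 2178 of 2405 cases. They lost the call in 209 and gained it in 18. Small differences that were not called could change sign. BHLH101 was at 0.01 in the main fit and at -0.0003 with quantile normalization. NAC014 was at 0.06 in the main fit and at -0.33 without heat replicate 2. Quantile normalization left the call, or its absence, unchanged for all 143. Median centring and an intensity trend with a robust prior did so for 142 each, and a filter at log2 6 for 131 of 132. Among 746 higher and 678 lower probe sets, the counts were 423 and 338 with no filter on dim probe sets, 242 and 101 at adjusted p below 0.01, and 213 and 228 without both arrays of high 25S signal, a setting chosen after seeing the data. With 1 array left out they were 212 to 766 and 110 to 805, and the higher share of calls, 52.4% with all arrays, was 76.0% and 66.7% without heat replicate 1 and 2, 66.5% without heat then anoxia replicate 1 and 48.8% to 57.0% otherwise. Anoxia against control had 314 higher and 353 lower at adjusted p below 0.01, 286 and 413 without the arrays of high 25S signal, 524 lower with only its 2 groups in the fit, and 358 to 575 and 454 to 762 with 1 array left out. The interaction had 114 higher and 112 lower at adjusted p below 0.01, 91 and 136 without the arrays of high 25S signal, and 185 to 598 and 153 to 445 with 1 array left out. The main fit did not pair arrays by replicate number, and whether same-numbered arrays belong together is not known. Over the 6 pairs of groups, deviations of same-numbered arrays correlated at 0.0223 to 0.298, all positive. The value was 0.0649 for heat then anoxia with heat, and not every pair passed 0.1. With a replicate block the counts were 883 higher and 907 lower, 658 and 984 in anoxia against control, and 784 and 592 in the interaction; 140 of the 143 gene results kept their call and 3 gained it. A group reduced to a single array borrowed its spread from the remaining groups. The causes of these shifts were not tested.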

Other observations

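The calmodulin-like gene CML37 had 9.62 and 9.66 in heat then anoxia, against 8.91 and 8.78 in heat, which was not called (0.79, adjusted p = 0.066), and 4.36 and 4.74 in anoxia, against 2.23 and 2.14 in control. The calmodulin-like genes CML43 (0.41), CML42 (0.31) and CML23 (-0.20) were not called either in heat then anoxia against heat. Of 83 genes with several tested probe sets, the calls differed between probe sets for 6, and 0 had opposite calls.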
